A study of Mus musculus with 18 samples.

Results

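The genes described here carry glucose into the cell and through glycolysis, the entry of pyruvate into the mitochondrion and the pentose phosphate pathway. They were chosen by name, from their known function, as the rows of the count table whose mouse gene symbol is 1 of 37 members, out of 54347 genes in the table, and all 37 passed the filter on low counts, Aldoc through its LNA1 libraries alone. The cells were wt1-SAM brown adipocytes, 1 immortalised mouse brown adipocyte line that carries the CRISPR activation machinery SAM, grown in high glucose medium and differentiated with rosiglitazone, T3, dexamethasone, insulin, indomethacine and IBMX. On day 4 every culture was reverse transfected with an antisense oligonucleotide built with locked nucleic acid (LNA), either the non-targeting ctrlA or LNA1 or LNA2, which are directed against the long noncoding RNA Gm15551. Cells were left unstimulated or received 1 µM isoproterenol, an agonist of β-adrenergic receptors, for 24 h, and were harvested on day 7. This gave 6 groups of 3 libraries of polyadenylated RNA, numbered 2, 3 and 4 in each group. The labels do not say that the numbers are separate cultures, so the p-values measure the spread between these libraries, which may be technical.

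Glucose enters adipocytes through the transporters encoded by Slc2a1 and the insulin-regulated Slc2a4, is phosphorylated by hexokinase and is split and oxidised to pyruvate in glycolysis. Pyruvate is reduced to lactate by lactate dehydrogenase, or is carried into mitochondria by the Mpc1 and Mpc2 carrier and oxidised by pyruvate dehydrogenase, a complex that the Pdk kinases switch off by phosphorylation, while the pentose phosphate pathway draws glucose phosphate off to make NADPH and ribose. Brown adipocytes take up much glucose when adrenergic signals activate them, and use it for oxidation, for lipid synthesis and for lactate release.

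The libraries held 9167560 to 19723021 counts, of which the members took 2.18 to 3.39%. The 6 replicate 2 libraries stood apart from the other 12: mitochondrial genes took 7.86 to 9.79% of their counts against 2.56 to 4.97%, and CT010467.1, a ribosomal RNA fragment, 2.88 to 14.3% against 0.285 to 1.04%. Gm15551 itself had 1 to 14 counts per library, with overlapping ranges in the ctrlA, LNA1 and LNA2 libraries. In pairs of the same number and stimulation its count was below that of ctrlA in 5 of 6 with LNA1 and in 5 of 6 with LNA2, and its share of the library total in 4 of 6 with each, which was not tested. The study itself reports a robust fall of Gm15551 on day 7 with both targeting LNAs. The adipocyte markers Fabp4 (7081 to 20719 CPM, counts per 1000000 of the scaled library size) and Adipoq (262 to 771 CPM) were high in every library, the brown marker Ucp1 was at 0.621 to 16.5 CPM and rose with isoproterenol by 3.51 on the log2 scale (edgeR adjusted p = 1.12e-08), and Dio2 reached at most 4 counts. The summed level of the 10 adipocyte markers, mostly Fabp4, was 12745 to 23185 CPM in unstimulated and 9316 to 17321 CPM in stimulated libraries. In the same order, that of 5 preadipocyte markers was 14.9 to 39.4 and 25.3 to 74.9 CPM. Of the 3 of them that were tested, Ly6a alone passed with isoproterenol, as higher, and the median log2 difference was -0.03. Ly6a was at 5.68 to 63.3 CPM over all libraries. The summed level of 5 macrophage markers was 8.23 to 28.6 CPM unstimulated and 12.2 to 44.3 CPM stimulated, made up mostly of Cd68, with Ptprc and Adgre1 at no more than 3 counts. Skeletal muscle markers summed to at most 4.79 CPM and endothelial markers to at most 3.99 CPM. The part of these shifts in the results below was not tested, and in bulk RNA fewer cells of a type and less RNA per cell cannot be told apart.

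The 3 oligonucleotides are shown with the place where they pair in Gm15551, because the comparisons between them rest on what they bind. The runs are written 5′ to 3′, and the site is the stretch of the Gm15551 transcript that the oligonucleotide complements over its whole length of 16 bases.
ctrlA: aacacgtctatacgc
LNA1: gatgactgagattaga
LNA1 site in Gm15551: tctaatctcagtcatc
LNA2: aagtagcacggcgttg
LNA2 site in Gm15551: caacgccgtgctactt
None of the transcripts of the 37 members held a stretch of 12 or more bases complementary to any of the 3. The longest was 9 bases for ctrlA (in Pfkp), 11 for LNA1 (in Pfkp) and 9 for LNA2 (in Eno1).

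Levels of different genes were set side by side per kilobase of exon, counting each base that is exon in any transcript of the gene, so a gene with long rarely used exons reads low. From the counts of the gene alone, Pgk1, the phosphoglycerate kinase, was at 1299 CPM per kb and Aldoc, an aldolase best known from brain, was the lowest at 0.331. Aldoa, the main aldolase, was at 1205, Pgam1 at 867, Ldha at 831, Tpi1 at 622, Pkm at 557 and Gpi1 at 145. The places of Gapdh and Eno1, the main enolase, depend on near copies that share their sequence: Gapdh was at 789 alone and 1507 with its copies added, which is above Pgk1, and Eno1 at 131 alone and 405 with them, which moves it from below to above Gpi1. The enzymes that commit glucose to the pathway were lower, with the phosphofructokinase subunits Pfkl at 94.8, Pfkm at 25.3 and Pfkp at 7.40, and the hexokinases Hk2 at 44.5 and Hk1 at 21.6. Pfkm and Pfkp cannot be ordered, since the exons of Pfkp add up to 13401 bases and those of Pfkm to 3340, and before division by length Pfkp was at 99.2 CPM and Pfkm at 84.6. Slc2a1, at 77.1 CPM per kb, was above Slc2a4 at 39.7. Among the pyruvate dehydrogenase kinases that are members, which leaves out Pdk4, the order was Pdk1 (31.2), Pdk2 (14.0) and Pdk3 (11.5). In the pentose phosphate pathway Taldo1 (253) stood above G6pdx (91.1), Tkt (59.2) and Pgd (37). G6pdx and Tkt cannot be ordered either, since their exons add up to 3080 and 7355 bases. Before division by length G6pdx was at 280 CPM and Tkt at 436. Ldhb, the heart type subunit of lactate dehydrogenase, was at 19.4, while Eno3, Slc16a3, Pfkfb4 and Pfkfb2 were all under 10.

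**Figure D1:**
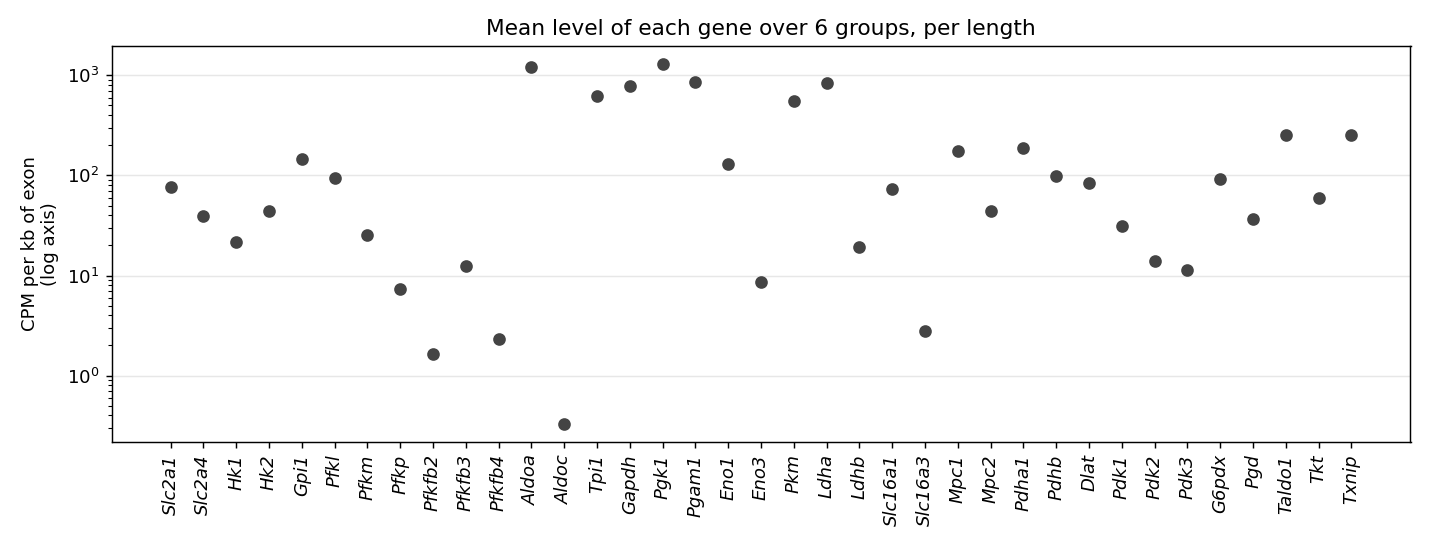
Level of each of the 37 members in CPM per kilobase of exon, on a log axis, as the mean over the 6 groups, from the counts of the gene alone, without the near copies of Gapdh and Eno1. Pgk1 lies at 1299, Aldoa at 1205 and Aldoc at 0.331.

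A test of all 6 groups together was passed by 1 member, Ldhb, at the study's limit of adjusted p under 0.001, where 0.455% of the 14949 genes tested passed. With the replicate number as a block, which the pairing of the libraries calls for, 7 members passed (18.9%), against 8.93% of all genes. These were Hk1, Pfkm, Aldoc, Ldhb, Pdhb, Pdk1 and Taldo1. Aldoc entered the test only through the LNA1 libraries in which it is high, so its place in this count is not free of that choice. When the stimulated LNA2 replicate 3 was left out, 19 members passed, against 12.3% of all genes. Leaving out replicate 2, 3 or 4 left 1, 2 and 1 members, in fits whose share of all genes is not given here. In what follows, a member is said to rise or fall where it passed at adjusted p under 0.05 in the fit with this block, and the value without the block stands beside it.

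Isoproterenol moved 2 members in the fit without the block, Ldhb up and Taldo1 down (5.41% of members, against 4.58% of all genes tested). With the block, 19 members passed, 13 higher and 6 lower (51.4% against 26.4% of all genes, 14.2% higher and 12.2% lower). Those that rose were mostly enzymes of glycolysis proper, from Hk1, Gpi1, Pfkm and Pfkp to Tpi1, Gapdh, Eno1 and Pkm, with the regulator Pfkfb4, both lactate dehydrogenase subunits, the lactate transporter Slc16a1 and the kinase Pdk2. Those that fell were Slc2a4, Pfkfb3, Pdhb and Dlat of pyruvate dehydrogenase, and G6pdx and Taldo1 of the pentose phosphate pathway. The median log2 difference over the 37 members was 0.09 against -0.0021 over all genes tested, and 24 of 37 were positive with the block. Without the 6 replicate 2 libraries, 12 members passed with the block (9 higher, 3 lower) and 10 passed without it (8 higher, 2 lower), against 13.1% and 10.9% of all genes. Of the 19 calls with the block, those of Slc2a4, Pfkfb3, Pfkfb4, Tpi1, Gapdh, Ldha and Pdhb were lost without replicate 2, those of Pfkp, Pfkfb4 and Ldha without replicate 3, and those of Pfkfb3, Tpi1, Ldha and Slc16a1 without replicate 4.

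**Figure D2:**
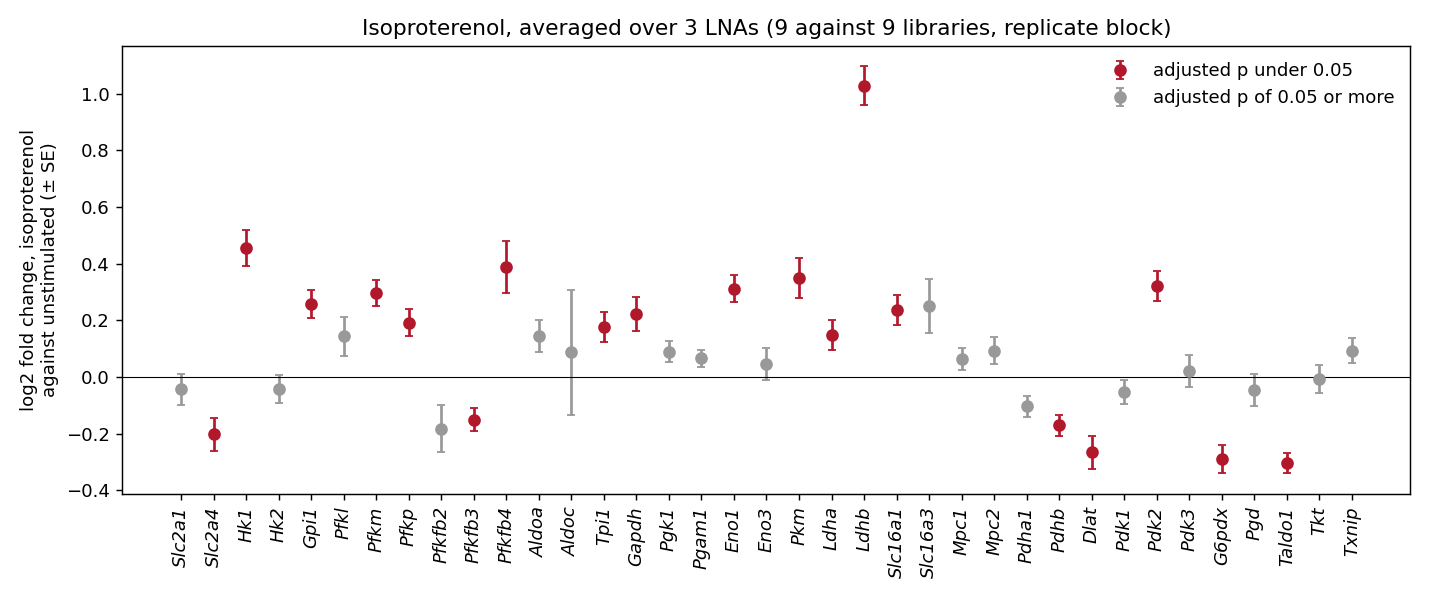
Log2 difference of each member between 9 isoproterenol and 9 unstimulated libraries in the edgeR fit with the replicate block, with its SE as error bar; filled red points passed at adjusted p under 0.05. Ldhb, at 1.03, lies apart from the other members, which range from -0.30 (Taldo1) to 0.46 (Hk1).

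Ldhb (ENSMUSG00000030246.12, chr6:142490249-142507957, minus strand) responded most clearly. Its position, like those given below, is on build GRCm38. In ctrlA cells its level in replicates 2, 3 and 4 was 18.4, 15.8 and 15.5 CPM without and 45.1, 35.3 and 34.3 CPM with isoproterenol. In LNA1 cells it was 21.3, 23.4 and 22.8 CPM without and 47.4, 42.0 and 36.7 CPM with isoproterenol, and in LNA2 cells 19.3, 23.2 and 21.4 CPM without and 40.5, 49.4 and 37.6 CPM with isoproterenol. Every stimulated library was above every unstimulated one, which no other member showed. The means were 20.1 ± 3.04 CPM and 40.9 ± 5.43 CPM (SD, n = 9 each), a ratio of 2.03 (log2 difference 1.03, SE 0.068, edgeR adjusted p = 1.53e-08 with the replicate block and 3.92e-06 without it). Ldha (ENSMUSG00000063229.15, chr7:46841475-46855627, plus strand), the muscle type subunit and by far the more abundant, was at 2188 to 3254 CPM (median 2494) unstimulated and 2350.0 to 3709.8 CPM (median 2778) stimulated, and rose in 8 of 9 pairs of libraries (log2 difference 0.15, SE 0.053, edgeR adjusted p = 0.0484 with the replicate block and 0.686 without it). That call is weak, since it was lost in 13 of the 18 fits that each left out 1 library (adjusted p up to 0.113). As a share of the counts of both subunits scaled to library size, Ldhb made up 0.592 ± 0.0273% in unstimulated ctrlA cells and 1.23 ± 0.0279% in stimulated ones (SD, n = 3), 0.922 ± 0.172% and 1.52 ± 0.0755% in LNA1 cells, and 0.841 ± 0.184% and 1.47 ± 0.115% in LNA2 cells. These shares were not divided by length, and the exons of Ldhb add up to 1570 bases and those of Ldha to 3310.

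The sequences upstream of Ldhb, Ldha and Taldo1 are shown because these members hold the rise and the fall under isoproterenol that passed without the block, and the partner subunit of the first. Each is the 250 bases before a transcription start in RefSeq on build GRCm38.p6, in the direction of the gene, with capitals marking every match on either strand to TGACG, the short cAMP response motif (TGACGTCA is its full palindrome), to CACGTG, the E-box, and to ACGTG, the core of the hypoxia response element, which every E-box contains.
Ldhb chr6:142507958-142508207 minus strand: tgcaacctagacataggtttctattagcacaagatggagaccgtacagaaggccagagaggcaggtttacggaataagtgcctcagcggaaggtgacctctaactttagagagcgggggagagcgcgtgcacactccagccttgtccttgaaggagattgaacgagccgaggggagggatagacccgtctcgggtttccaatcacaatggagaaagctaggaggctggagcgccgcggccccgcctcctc
Ldha chr7:46845554-46845803 plus strand: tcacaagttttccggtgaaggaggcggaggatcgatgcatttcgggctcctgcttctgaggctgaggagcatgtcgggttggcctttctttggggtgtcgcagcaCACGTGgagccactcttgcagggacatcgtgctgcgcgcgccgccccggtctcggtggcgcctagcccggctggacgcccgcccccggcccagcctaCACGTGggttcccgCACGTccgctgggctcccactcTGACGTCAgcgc
Taldo1 chr7:141391910-141392159 plus strand: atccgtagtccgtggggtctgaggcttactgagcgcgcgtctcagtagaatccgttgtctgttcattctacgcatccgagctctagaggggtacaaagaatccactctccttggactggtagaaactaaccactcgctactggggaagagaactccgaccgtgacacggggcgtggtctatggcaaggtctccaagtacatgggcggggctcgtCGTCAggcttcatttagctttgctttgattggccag
The Ldhb window held none of these letters, the Ldha window held the full cAMP palindrome, 2 E-boxes and 5 matches to ACGTG counted on both strands, and the Taldo1 window held a single TGACG match on the reverse strand. Ldha has more than 1 start in the table, and the window shown is the one with the full palindrome, the only one among the members. Of the 37 members 36 were found in the promoter table (Slc2a4 was not), with 54 windows. TGACG occurred in 11 of them (20.4%) against 17.8% of 32851 windows of all genes, TGACGTCA in 1 (1.85% against 1.55%), CACGTG in 6 (11.1% against 6.02%) and ACGTG in 19 windows of 15 members (35.2% against 16.6%). These are matches of letters and were not tested.

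Of the 4 transporter and hexokinase genes at the entry of glucose, 1 rose and 1 fell. Slc2a1, the basal glucose transporter, was at 274 ± 71.4 CPM unstimulated and 267 ± 71.8 CPM stimulated (SD, n = 9) and did not pass (log2 difference -0.043, SE 0.055, edgeR adjusted p = 0.613 with the replicate block and 0.980 without it). Slc2a4, the insulin-responsive transporter, was lower with isoproterenol in 8 of 9 pairs, at 146 ± 29.5 and 129.6 ± 36.0 CPM (log2 difference -0.20, SE 0.058, edgeR adjusted p = 0.0165 with the replicate block and 0.802 without it). The arms overlapped widely, and replicate 2 lay below replicates 3 and 4 in every group (mean log2 difference -0.68). Hk1 (ENSMUSG00000037012.18, chr10:62268855-62379908, minus strand), the widely expressed hexokinase, was at 63.9, 143 and 169.8 CPM without and 86.4, 192 and 205 CPM with isoproterenol in ctrlA cells, replicates 2, 3 and 4. The values were 73.4, 181 and 211 CPM without and 108, 285 and 287 CPM with isoproterenol in LNA1 cells, and 101, 202 and 249 CPM without and 120.5, 372 and 275 CPM with isoproterenol in LNA2 cells. Replicate 2 was the lowest of the 3 in every group, so the arms overlap, but within each number the stimulated library was higher in 9 of 9 pairs (log2 difference 0.46, SE 0.065, edgeR adjusted p = 5.98e-05 with the replicate block and 0.608 without it). Hk2, the insulin-responsive hexokinase of muscle and fat, was at 267 ± 107 and 264 ± 115 CPM and did not pass (log2 difference -0.044, SE 0.050, edgeR adjusted p = 0.560 with the replicate block and 0.998 without it). The share of Hk1 in the summed level of both hexokinases was 30.7 ± 1.66% and 38.5 ± 4.93% in ctrlA cells without and with isoproterenol (SD, n = 3), 36.3 ± 1.47% and 46.4 ± 1.83% in LNA1 cells and 43.6 ± 2.87% and 50.4 ± 2.04% in LNA2 cells. These shares are of CPM not divided by length, and the exons of Hk1 add up to 8532 bases and those of Hk2 to 5969.

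Gpi1, the isomerase that makes fructose phosphate, rose in 9 of 9 pairs, from 852 ± 165 to 1023 ± 232 CPM (log2 difference 0.26, SE 0.049, edgeR adjusted p = 0.00101 with the replicate block and 0.548 without it). Of the 3 phosphofructokinase subunits, which form the main control step of glycolysis, Pfkm rose in 9 of 9 pairs, with 48.0 to 94.2 CPM (median 82.2) unstimulated and 54.5 to 145 CPM (median 97.3) stimulated (log2 difference 0.30, SE 0.046, edgeR adjusted p = 0.000141 with the replicate block and 0.569 without it), and Pfkp rose in 8 of 9 pairs (log2 difference 0.19, SE 0.047, edgeR adjusted p = 0.00610 with the replicate block and 0.689 without it). Pfkl, the most abundant subunit per length, had means of 599.8 and 666 CPM and did not pass (log2 difference 0.14, SE 0.067, edgeR adjusted p = 0.132 with the replicate block and 0.909 without it). The 3 Pfkfb genes encode the bifunctional enzymes that make and remove the fructose bisphosphate acting as allosteric activator of phosphofructokinase, and of these 1 rose and 1 fell. Pfkfb4 (ENSMUSG00000025648.18, chr9:108991778-109032228, plus strand) rose in 9 of 9 pairs (log2 difference 0.39, SE 0.092, edgeR adjusted p = 0.00476 with the replicate block and 0.0793 without it). Pfkfb3 was lower in 9 of 9 pairs, at 98.3 and 89.0 CPM (log2 difference -0.15, SE 0.041, edgeR adjusted p = 0.0120 with the replicate block and 0.725 without it), a call lost also with no filter on low counts (adjusted p up to 0.189 over these alternatives). Pfkfb2, at 12.6 and 11.2 CPM, did not pass (log2 difference -0.18, SE 0.082, edgeR adjusted p = 0.117 with the replicate block and 0.611 without it).

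In the lower part of glycolysis, from aldolase to pyruvate, 4 of the 9 members rose. Eno1 (ENSMUSG00000063524.13, chr4:150236721-150248879, plus strand) was at 567, 688 and 691 CPM without and 706, 837 and 887 CPM with isoproterenol in ctrlA cells. In LNA1 cells it was at 569, 611 and 684 CPM without and 660.1, 854 and 794 CPM with isoproterenol and in LNA2 cells at 594, 607 and 634 CPM without and 670.0, 893 and 726 CPM with isoproterenol. All 9 pairs were higher with isoproterenol, while over all 18 libraries the arms overlapped (log2 difference 0.31, SE 0.047, edgeR adjusted p = 0.000113 with the replicate block and 0.0634 without it). Pkm, the pyruvate kinase of most tissues, rose in 9 of 9 pairs from 2441 ± 389.7 to 3132 ± 754 CPM (log2 difference 0.35, SE 0.070, edgeR adjusted p = 0.00138 with the replicate block and 0.237 without it), and its highest value by far, 4823 CPM, came from the stimulated LNA2 replicate 3. Gapdh rose in 9 of 9 pairs (log2 difference 0.22, SE 0.060, edgeR adjusted p = 0.0108 with the replicate block and 0.577 without it). Tpi1, the triose phosphate isomerase, rose in 8 of 9 pairs (log2 difference 0.18, SE 0.053, edgeR adjusted p = 0.0197 with the replicate block and 0.423 without it), a call lost without stimulated ctrlA replicate 2 or without unstimulated LNA2 replicate 3 (adjusted p up to 0.0614). The other 5 did not pass: Aldoa had means of 3334 and 3684 CPM (edgeR adjusted p = 0.0656 with the block), Pgk1 2828 and 3003 CPM, Pgam1 1677 and 1759.7 CPM, the muscle enolase Eno3 14.6 and 15.0 CPM, and Aldoc 1.01 and 1.15 CPM.

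Counts of Eno1 and Gapdh are uncertain, because near copies share their sequence. Eno1b, 87.9% of whose words of 31 bases occur in Eno1 transcripts, held 336994 counts over all libraries against 161117 for Eno1. The 41 Gapdh copies together held 682273 against 747305. With the copies added to the gene, Eno1 rose by 0.31 (edgeR adjusted p = 0.000700 with the block and 0.140 without). Gapdh rose by 0.29 (edgeR adjusted p = 0.00867 with the block and 0.270 without). The copies of the other members held at most 5.55% of the counts of their gene, the highest share being that of Gm6123 for Pdhb. Exons of 13 members overlap exons of a gene on the opposite strand, among them Hk1 (Hk1os), Pfkm (Senp1), Pfkp (Pitrm1), Gapdh (Iffo1), Tpi1 (Spsb2), G6pdx (Ikbkg) and Txnip (Gm15441), and whether the counting used strand was not stated.

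Pyruvate and lactate handling moved in both directions. Slc16a1, a transporter of lactate and pyruvate, was at 225 to 381 CPM (median 292) unstimulated and 248 to 422 CPM (median 361) stimulated, and rose in 9 of 9 pairs (log2 difference 0.24, SE 0.052, edgeR adjusted p = 0.00290 with the replicate block and 0.376 without it). The second lactate transporter Slc16a3, with means of 13.5 and 16.1 CPM, and the mitochondrial carrier genes Mpc1 (358 and 370.4 CPM) and Mpc2 (312 and 333 CPM) did not pass. Of the 3 pyruvate dehydrogenase genes, 2 fell. Pdhb (ENSMUSG00000021748.9, chr14:8165996-8173025, minus strand), the β subunit of the first enzyme of the complex, was at 316 to 541 CPM (median 394) unstimulated and 286 to 479 CPM (median 380.2) stimulated and was lower in 9 of 9 pairs (log2 difference -0.17, SE 0.036, edgeR adjusted p = 0.00198 with the replicate block and 0.599 without it). Dlat (ENSMUSG00000000168.9, chr9:50634633-50659780, minus strand), the acetyltransferase core, was at 298 to 602 CPM (median 464) and 257 to 524 CPM (median 386), again lower in 9 of 9 pairs with overlapping arms (log2 difference -0.26, SE 0.058, edgeR adjusted p = 0.00279 with the replicate block and 0.547 without it). Pdha1, the α subunit, was lower in 9 of 9 pairs but just missed the limit (log2 difference -0.10, SE 0.037, edgeR adjusted p = 0.0502 with the replicate block and 0.682 without it). Of the 3 kinases among the members Pdk2 rose in 9 of 9 pairs, from 39.2 ± 11.8 to 49.2 ± 15.7 CPM (log2 difference 0.32, SE 0.053, edgeR adjusted p = 0.000276 with the replicate block and 0.630 without it), while Pdk1 (247 and 239 CPM) and Pdk3 (29.0 and 29.7 CPM) did not pass.

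In the pentose phosphate pathway both members that passed fell, and the other 2 did not pass. Taldo1 (ENSMUSG00000025503.5, chr7:141392199-141402968, plus strand), transaldolase of the non-oxidative branch, was at 662, 625 and 561 CPM without and 559, 506 and 521 CPM with isoproterenol in ctrlA cells. In LNA1 cells it was at 637, 622 and 587 CPM without and 512, 459 and 447 CPM with isoproterenol, and in LNA2 cells at 648, 572 and 540.0 CPM without and 481, 487 and 452 CPM with isoproterenol. In all 3 LNA settings the stimulated libraries lay below the unstimulated ones, and over all 18 libraries only stimulated ctrlA replicate 2 reached into the unstimulated range. The means were 606 ± 42.4 and 492 ± 36.7 CPM (SD, n = 9; log2 difference -0.30, SE 0.035, edgeR adjusted p = 7.49e-06 with the replicate block and 0.0217 without it). The call without the block was lost when any of 6 single libraries was left out (unstimulated LNA2 replicate 2, both ctrlA replicate 3 and both LNA1 replicate 3 libraries, and stimulated LNA1 replicate 4; adjusted p up to 0.0549), and also with no filter or without replicate 3 or 4, while with the block it held without each library. G6pdx, glucose phosphate dehydrogenase and the source of NADPH at the entry of the pathway, was at 275 to 345 CPM (median 304) unstimulated and 199.7 to 307 CPM (median 257) stimulated, and was lower in 8 of 9 pairs (log2 difference -0.29, SE 0.049, edgeR adjusted p = 0.000337 with the replicate block and 0.0829 without it). The exception was replicate 3 of the LNA2 cells. Pgd, the next dehydrogenase, had means of 241 and 236 CPM and Tkt, transketolase, 435 and 436 CPM, and neither passed (edgeR adjusted p = 0.592 and 0.933 with the block). Txnip, an inhibitor of glucose uptake whose expression follows glucose, had means of 773 and 825 CPM and did not pass (adjusted p = 0.122 with the block).

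**Figure D3:**
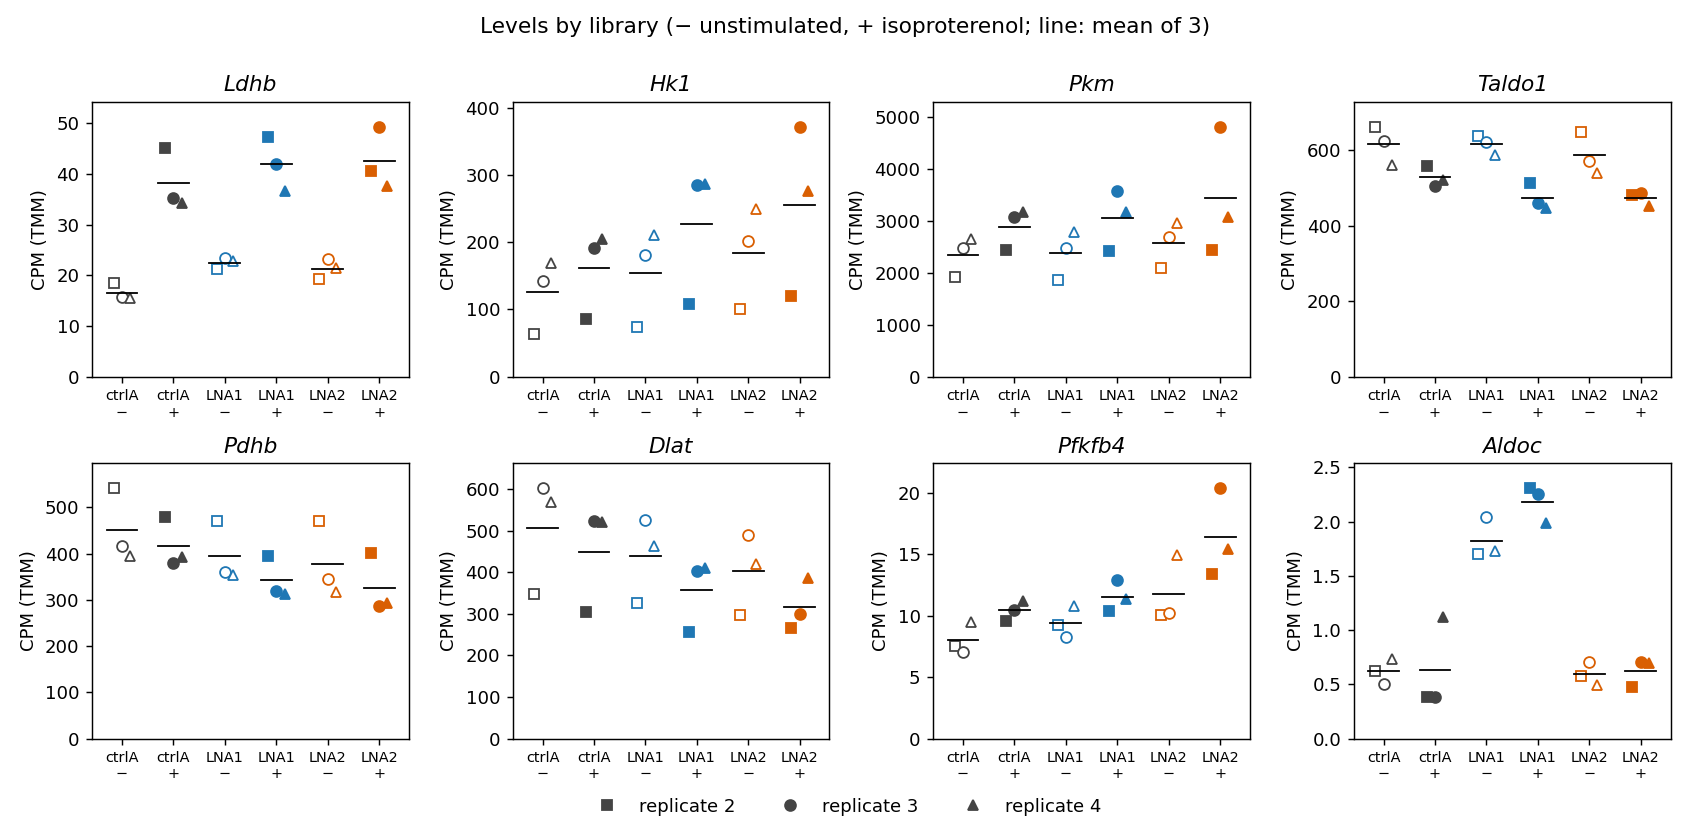
Level in CPM of Ldhb, Hk1, Pkm, Taldo1, Pdhb, Dlat, Pfkfb4 and Aldoc in each of the 18 libraries, by LNA, on linear axes from 0; squares, circles and triangles are replicates 2, 3 and 4, open symbols unstimulated, filled symbols isoproterenol, and lines the mean of 3. The Ldhb arms are separate in every LNA setting, Aldoc is higher in all 6 LNA1 libraries, and Hk1 and Dlat show replicate 2 below replicates 3 and 4 in every group.

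The response was also read in the ctrlA cells alone, 3 libraries against 3 that are part of the comparison above. Without the block Ldhb alone passed (0.488% of all genes passed), and with the block 5 members did, 3 higher and 2 lower (13.5%, against 7.88% of all genes). Ldhb rose (log2 difference 1.20, SE 0.12, edgeR adjusted p = 8.05e-06 with the replicate block and 0.000768 without it), and its 3 stimulated libraries lay above the 3 unstimulated ones, but the call without the block was lost without replicate 3 or without replicate 4. Eno1 rose as well (log2 difference 0.32, SE 0.081, edgeR adjusted p = 0.0218 with the replicate block and 0.984 without it), with an adjusted p of 0.0884 in the fit with the block once the Eno1 copies were added. Slc16a1 rose in these cells (log2 difference 0.32, SE 0.090, edgeR adjusted p = 0.0394 with the replicate block and 1.00 without it). G6pdx fell (log2 difference -0.29, SE 0.085, edgeR adjusted p = 0.0459 with the replicate block and 1.00 without it), and so did Taldo1 (log2 difference -0.22, SE 0.060, edgeR adjusted p = 0.0340 with the replicate block and 1.00 without it). Each of these calls but that of Ldhb was lost in 6 to 14 of the 18 fits that left out 1 library, and without replicate 2 or without replicate 4 (those of Slc16a1 and Taldo1 also without replicate 3, those of G6pdx and Taldo1 also with no filter), while 12 members passed without the stimulated LNA2 replicate 3, which is not among these 6 libraries, against 12.8% of all genes. Pfkfb4 was at 7.54, 7.07 and 9.46 CPM without and 9.57, 10.5 and 11.2 CPM with isoproterenol in ctrlA cells. It did not pass, although these values did not overlap (edgeR adjusted p = 0.194 with the block).

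The 2 targeting LNAs were each compared with ctrlA over unstimulated and stimulated cells, 6 libraries against the same 6 ctrlA libraries, so these comparisons share their controls. With LNA1, Aldoc alone passed without the block (0.475% of all genes passed), a gene that entered the test only through the libraries in which it is high, and with the block 7 members did, Aldoc included, 4 higher and 3 lower (18.9%, against 7.8% of all genes). With LNA2, Pfkfb4 alone passed without the block (1.59% of all genes), and with it 14 members did, 5 higher and 9 lower (37.8%, against 20.6% of all genes, 9.43% higher and 11.2% lower). The median log2 difference over the members was -0.08 with either LNA, against -0.02 over all genes tested. With the block and without the replicate 2 libraries, 2 members passed with LNA1 and 11 with LNA2, against 2.35% and 11.9% of all genes. Without replicate 4, 1 and 7 passed, against 0.591% and 6.88%. Of the LNA1 calls, those of Hk1, Pdhb, Dlat, Pdk3 and Txnip were lost without replicate 2, that of Ldhb without replicate 3, and those of Hk1, Ldhb, Pdhb, Dlat, Pdk3 and Txnip without replicate 4. Of the LNA2 calls, those of Pgk1, Pdk3 and Txnip were lost without replicate 2, those of Slc2a4, Ldhb and Txnip without replicate 3, and those of Slc2a4, Pgk1, Ldhb, Slc16a1, Pdha1, Pdk3 and Txnip without replicate 4. The calls of Ldhb with both LNAs were also lost with RLE size factors in place of TMM, that of Ldhb with LNA1 without mitochondrial genes and CT010467.1, and that of Pdk3 with LNA2 with no filter on low counts. The stimulated LNA2 replicate 3, in which the members took 3.39% and mitochondrial genes 2.56% of the counts, the highest and the lowest share of the 18 libraries, gave the highest counts when single libraries were left out: without it 18 members passed with LNA1 (6 higher, 12 lower), a comparison it is no part of, and 23 with LNA2 (4 higher, 19 lower), where 15% and 22% of all genes passed. Without it and without the block 1 and 0 members passed, against 0.501% and 1.02% of all genes.

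**Figure D4:**
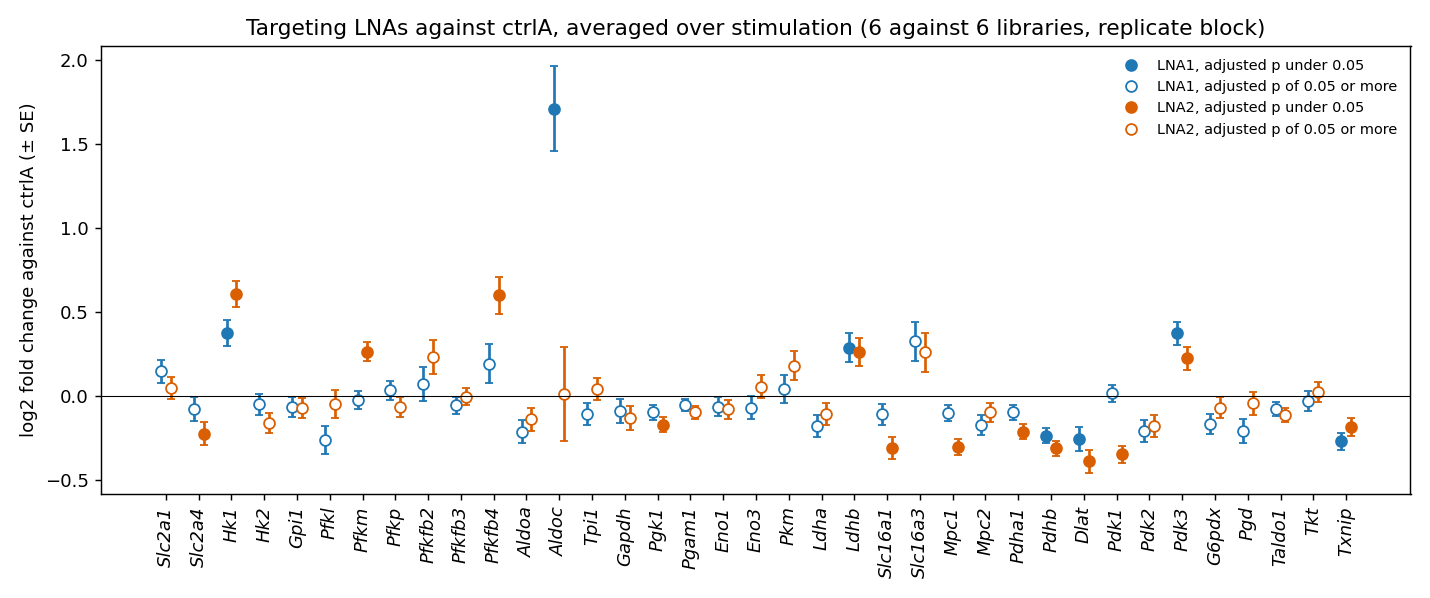
Log2 difference of each member from ctrlA with LNA1 (blue) and with LNA2 (orange) in the edgeR fit with the replicate block. Error bars are the SE. Filled points passed at adjusted p under 0.05 and open points did not. Aldoc stands apart with LNA1 only, at 1.71, while the pyruvate dehydrogenase members Pdhb and Dlat lie below 0 with both.

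Aldoc (ENSMUSG00000017390.15, chr11:78322968-78327781, plus strand), a scarce aldolase here, had 17 to 31 counts in the LNA1 libraries and 5 to 11 in the others. The filter asked for 3 libraries at or above 0.774 CPM of the raw total (10 counts at the median total), which it met in all 6 LNA1, 1 ctrlA and 0 LNA2 libraries, so it was tested through the LNA1 libraries in which it is high, and its p-values there are not free of that choice. In ctrlA cells it was at 0.624, 0.505 and 0.734 CPM without and 0.380, 0.386 and 1.12 CPM with isoproterenol. It reached 1.70, 2.04 and 1.73 CPM without and 2.31, 2.26 and 1.99 CPM with isoproterenol in LNA1 cells, and 0.578, 0.709 and 0.490 CPM without and 0.475, 0.707 and 0.692 CPM with isoproterenol in LNA2 cells. All 6 LNA1 libraries were above all ctrlA and LNA2 libraries. The difference from ctrlA was 1.71 ± 0.25 on the log2 scale (SE; edgeR adjusted p = 0.000811 with the block and 0.00743 without), while that of LNA2 was 0.010 (adjusted p = 0.988 with the block). LNA2 was also compared with LNA1 directly (log2 difference -1.70, SE 0.25, edgeR adjusted p = 0.000399 with the replicate block and 0.00352 without it). With no filter on low counts, where 35899 genes were tested, the difference of LNA1 from ctrlA was 1.68 (adjusted p = 1.08e-06 with the block and 0.0121 without) and that of LNA2 from LNA1 -1.68 (6.16e-07 and 0.00829). Without the block both Aldoc calls were lost without replicate 3 or without replicate 4.

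Pfkfb4 was at 7.54, 7.07 and 9.46 CPM without and 9.57, 10.5 and 11.2 CPM with isoproterenol in ctrlA cells, at 9.25, 8.25 and 10.8 CPM without and 10.4, 12.9 and 11.4 CPM with isoproterenol in LNA1 cells, and at 10.1, 10.2 and 14.9 CPM without and 13.4, 20.4 and 15.5 CPM with isoproterenol in LNA2 cells. The LNA2 library was the highest of its number and stimulation in each case, with the ranges of the arms overlapping. It rose with LNA2 in 6 of 6 pairs (log2 difference 0.60, SE 0.11, edgeR adjusted p = 0.00135 with the replicate block and 0.0466 without it), and the call without the block was lost in 16 of the 18 fits that left out 1 library (adjusted p up to 0.151). It was higher than with LNA1 directly (log2 difference 0.41, SE 0.11, edgeR adjusted p = 0.0215 with the replicate block and 0.278 without it), a call lost without unstimulated LNA1 replicate 3, stimulated LNA1 replicate 4 or unstimulated LNA2 replicate 4.

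Among the other upstream genes, Hk1 rose with both LNAs in 6 of 6 pairs, with LNA1 (log2 difference 0.37, SE 0.079, edgeR adjusted p = 0.00858 with the replicate block and 1.00 without it) and with LNA2 (log2 difference 0.60, SE 0.079, edgeR adjusted p = 8.06e-05 with the replicate block and 0.694 without it). LNA2 and LNA1 were not told apart for Hk1, with a difference of 0.23 ± 0.079 (SE; adjusted p = 0.0583 with the block). Pfkm rose with LNA2 (log2 difference 0.26, SE 0.056, edgeR adjusted p = 0.00367 with the replicate block and 0.877 without it) and was also higher than with LNA1 (log2 difference 0.29, SE 0.056, edgeR adjusted p = 0.00284 with the replicate block and 0.927 without it), where the difference of LNA1 from ctrlA was -0.026 (adjusted p = 0.840). Slc2a4 fell with LNA2 (log2 difference -0.23, SE 0.071, edgeR adjusted p = 0.0327 with the replicate block and 0.863 without it), a call lost in 7 of the 18 fits that left out 1 library. Pgk1 fell with LNA2 from 3105 ± 579 to 2744 ± 457 CPM (SD, n = 6; log2 difference -0.17, SE 0.046, edgeR adjusted p = 0.0140 with the replicate block and 0.881 without it). Aldoa was lower in all 6 LNA1 libraries (2986 to 3548 CPM) than in all 6 ctrlA libraries (3645 to 4039 CPM) and yet did not pass (adjusted p = 0.0666 with the block).

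Among the genes of pyruvate handling, members moved in both directions with the LNAs. Pdhb was at 541, 417 and 394 CPM without and 479, 380.2 and 392 CPM with isoproterenol in ctrlA cells. In LNA1 cells it was at 470.1, 361 and 354 CPM without and 394, 319 and 313 CPM with isoproterenol, and in LNA2 cells at 470.3, 346 and 316 CPM without and 401, 286 and 292 CPM with isoproterenol. Each LNA1 and LNA2 library was below the ctrlA library of its number and stimulation, although the ranges overlap, replicate 2 being the highest in every group. It fell with LNA1 (log2 difference -0.24, SE 0.044, edgeR adjusted p = 0.00344 with the replicate block and 1.00 without it) and with LNA2 (log2 difference -0.31, SE 0.044, edgeR adjusted p = 0.000142 with the replicate block and 0.472 without it). Dlat fell with LNA2 (log2 difference -0.39, SE 0.071, edgeR adjusted p = 0.00116 with the replicate block and 0.511 without it) and with LNA1 (log2 difference -0.26, SE 0.071, edgeR adjusted p = 0.0353 with the replicate block and 1.00 without it), where the call was lost in 10 of the 18 fits that left out 1 library. Pdha1 fell with LNA2 (log2 difference -0.21, SE 0.046, edgeR adjusted p = 0.00364 with the replicate block and 0.500 without it). Over these 3 genes of the complex, LNA2 and LNA1 were not told apart, the direct differences being -0.12 for Pdha1, -0.075 for Pdhb and -0.13 for Dlat (adjusted p = 0.101, 0.272 and 0.228 with the block).

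Pdk1 (ENSMUSG00000006494.11, chr2:71873224-71903858, plus strand), a kinase that inhibits pyruvate dehydrogenase, was at 264, 269 and 246 CPM without and 279, 251 and 253 CPM with isoproterenol in ctrlA cells. It was at 282, 259 and 254 CPM without and 268, 242 and 275 CPM with isoproterenol in LNA1 cells, and at 239.9, 208 and 198 CPM without and 215, 174 and 195 CPM with isoproterenol in LNA2 cells. All 6 LNA2 libraries lay below all 6 of ctrlA and all 6 of LNA1. It fell with LNA2 against ctrlA (log2 difference -0.35, SE 0.051, edgeR adjusted p = 0.000183 with the replicate block and 0.0662 without it) and against LNA1 (log2 difference -0.36, SE 0.051, edgeR adjusted p = 0.000222 with the replicate block and 0.0774 without it). Pdk3 rose with LNA1 (log2 difference 0.37, SE 0.070, edgeR adjusted p = 0.00399 with the replicate block and 0.927 without it) and with LNA2 (log2 difference 0.22, SE 0.070, edgeR adjusted p = 0.0336 with the replicate block and 0.864 without it), the latter lost in 7 of the 18 fits that left out 1 library. Pdk2 passed with neither LNA (adjusted p = 0.0610 and 0.0622 with the block).

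The carrier gene Mpc1 fell with LNA2 in 6 of 6 pairs (log2 difference -0.31, SE 0.048, edgeR adjusted p = 0.000428 with the replicate block and 0.916 without it) and was lower than with LNA1 (log2 difference -0.20, SE 0.048, edgeR adjusted p = 0.0105 with the replicate block and 1.00 without it), while its partner Mpc2 did not pass with LNA2 (log2 difference -0.10, adjusted p = 0.244). Slc16a1 fell with LNA2 in 6 of 6 pairs (log2 difference -0.31, SE 0.064, edgeR adjusted p = 0.00277 with the replicate block and 0.469 without it), and its difference between LNA2 and LNA1 (log2 difference -0.20, SE 0.064, edgeR adjusted p = 0.0452 with the replicate block and 0.872 without it) was lost in 12 of the 18 fits that left out 1 library. Ldhb rose with LNA1 (log2 difference 0.29, SE 0.084, edgeR adjusted p = 0.0483 with the replicate block and 0.531 without it) and with LNA2 (log2 difference 0.26, SE 0.084, edgeR adjusted p = 0.0371 with the replicate block and 0.369 without it), calls lost in 14 and 9 of the 18 fits that left out 1 library. Txnip fell with LNA1 from 882 ± 118 to 734 ± 133 CPM (SD, n = 6; log2 difference -0.27, SE 0.053, edgeR adjusted p = 0.00476 with the replicate block and 1.00 without it) and with LNA2 (log2 difference -0.19, SE 0.052, edgeR adjusted p = 0.0187 with the replicate block and 0.864 without it), the latter lost without unstimulated ctrlA replicate 3, stimulated ctrlA replicate 3 or unstimulated LNA2 replicate 4 (up to 0.0639). None of the 4 pentose phosphate members passed with an LNA. In the same comparisons the adipocyte markers that passed with the block all fell (2 with LNA1, 4 with LNA2), and the preadipocyte and macrophage markers that passed all rose (Pdgfra and Cd68 with LNA1, Pdgfra, Ly6a, Cd68 and Csf1r with LNA2), Csf1r having met the filter in 4 LNA2 libraries and no other. The macrophage sum was 8.23 to 24.7 CPM in ctrlA, 11.9 to 30.2 in LNA1 and 14.0 to 44.3 in LNA2 libraries, and the preadipocyte sum 14.9 to 66.3, 20.2 to 74.9 and 21.2 to 71.9 CPM. The part of these shifts in the members' differences was not tested.

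LNA2 and LNA1 compared directly differed in 1 member without the block, Aldoc (0.97% of all genes), tested through its LNA1 libraries as said above, and in 6 with it, 2 higher with LNA2 and 4 lower (16.2%, against 15.4% of all genes), or 10, against 19.2%, when the stimulated LNA2 replicate 4 was left out. The 6 were Pfkm, Pfkfb4, Aldoc, Slc16a1, Mpc1 and Pdk1, each given above. Those of Pfkm, Pfkfb4, Slc16a1 and Mpc1 were lost without replicate 2, that of Slc16a1 without replicate 3 and those of Pfkfb4, Slc16a1 and Mpc1 without replicate 4, and Slc16a1 was lost without mitochondrial genes and CT010467.1 as well. An interaction term asked whether isoproterenol acted otherwise in LNA1 or LNA2 cells than in ctrlA cells, and 0 members and 0% of all genes passed for LNA1 or for LNA2 with or without the block in edgeR. At an unadjusted p under 0.05 the interaction picked out 0 members for either LNA without the block, and with it 0 members for LNA1 and 1 for LNA2 (393 and 807 of all genes), and DESeq2 called 0 members.

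The members also varied with the replicate number. For 17 of 37 members (45.9%) the 6 replicate 2 values did not overlap the other 12, against 34.5% of all genes tested, and the median size of the difference was 0.44 on the log2 scale for the members and 0.45 for all genes. The largest differences with replicate 2 lower were those of Hk2 (log2 difference -1.48), Hk1 (-1.31), Pfkl (-0.95), Pdk2 (-0.95), Slc16a3 (-0.93), Tkt (-0.91), Pfkm (-0.78) and Slc2a1 (-0.76). The largest with replicate 2 higher were those of Mpc1 (0.98), Mpc2 (0.66), Pdk3 (0.57) and Pgk1 (0.46). The carrier genes thus ran opposite to the hexokinases across the numbers, and for each of these named members the difference was larger in size than its isoproterenol difference.

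**Figure D5:**
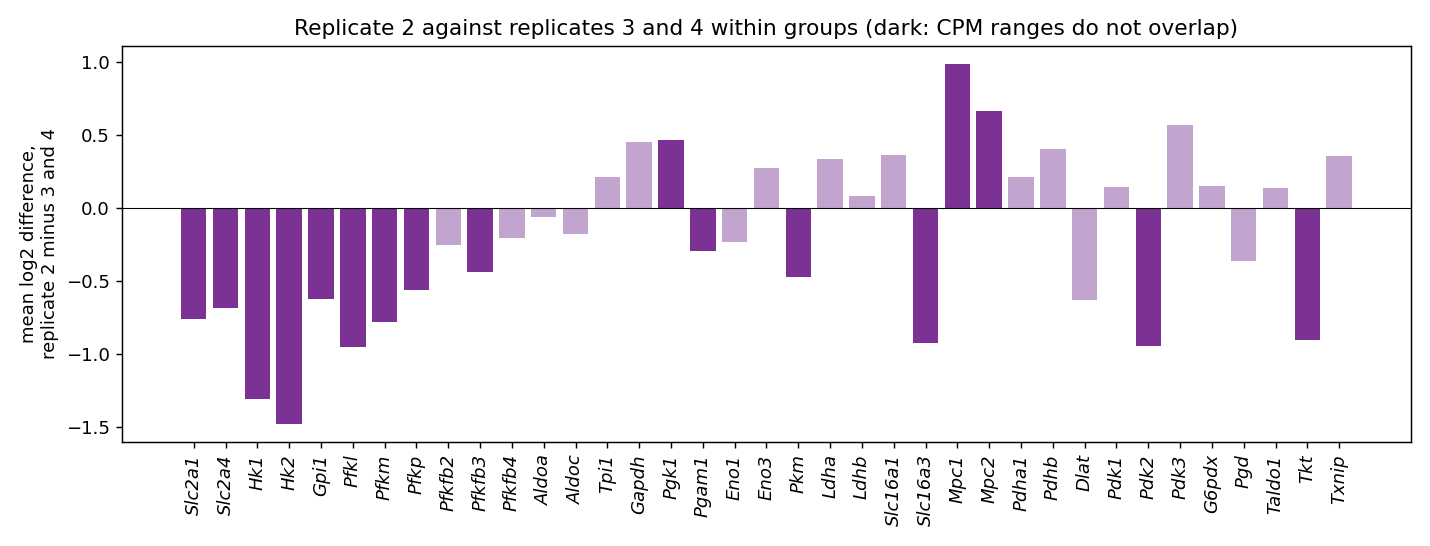
Mean log2 difference of each member between the replicate 2 libraries and replicates 3 and 4, as bars from 0; dark bars mark members whose 6 replicate 2 values do not overlap the other 12. Hk2 (-1.48) and Mpc1 (0.98) are the ends of the range.

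A further 44 genes of glucose metabolism were listed from general knowledge, and 31 had enough counts to be tested. With isoproterenol 4 passed without the block, where 4.58% of all genes did: Pck1, the enzyme that feeds glyceroneogenesis, rose by 1.29 on the log2 scale (edgeR adjusted p = 0.00683), Pdk4, a fasting-induced kinase of pyruvate dehydrogenase, rose by 0.65 (0.00303), Got1 of the malate-aspartate shuttle rose by 0.43 (0.0108) and Rpia, the ribose phosphate isomerase, fell by 0.30 (0.0355). With the block 12 passed, 3 higher and 9 lower, against 26.4% of all genes. LNA1 gave 0 without the block and 3 lower with it (0.475 and 7.8% of all genes), LNA2 0 and 12 (3 higher, 9 lower; 1.59 and 20.6%), and LNA2 against LNA1 0 and 7 (0.97 and 15.4%). The median log2 difference over the 31 genes was -0.04 with isoproterenol, -0.11 with LNA1 and -0.07 with LNA2.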

How the data were processed

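Polyadenylated RNA was made into 18 NEBNext Ultra II libraries and read as paired ends. Per the labels and the study's methods, the authors used cutadapt for trimming and salmon for quantification, with transcripts of GRCm38 from Gencode M22, alone or together with RNAcentral; which of these gave this table is not given in the sources used here. The deposited values are expected counts per gene, unscaled, replicates not pooled, and were already whole numbers (0 values were not whole). Program versions and use of strand are not given in the sources used here.

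Genes were tested with edgeR 4.0.16 in R 4.3.3: TMM scaling, filterByExpr (minimum count 10, total 15), 1 term per group, quasi-likelihood tests and Benjamini-Hochberg adjustment over the 14949 genes left. Genes passed at adjusted p under 0.05 (0.001 for the joint test). Comparisons were isoproterenol against none over 9 and 9 libraries, LNA1 and LNA2 against ctrlA and each other over 6 and 6, isoproterenol in ctrlA over 3 and 3, and the interactions. Levels are counts per 1000000 of the TMM-scaled library size over the genes tested (CPM). The counting floor of 3 counts was 0.170 to 0.306 CPM. Libraries of 1 replicate number deviated together from their group means (r = 0.65 to 0.72 for number 2, 0.25 to 0.51 for 3 and 0.24 to 0.47 for 4; different numbers had a median of -0.44), so the fit with the number as a block is given throughout. No libraries were identical, and the 18 pairs within a group, compared by chi-square, differed by more than counting error. Near copies were genes with a transcript that has at least 50% of its 31-base words in a member's transcripts. Log2 difference, SE and both adjusted p-values are given for each member that passed. DESeq2 1.42.0, other filters, a fold limit of 0.5, left-out libraries and summed copies were tried as alternatives, and the scripts were tested on simulated data. The members and lists were chosen with earlier results of these data known.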

Additional observations from a re-analysis of the deposited data

How the results depend on the processing

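With the replicate number as a block, an analysis that pairs the libraries, the members that passed went from 1 to 7 in the joint test, from 2 to 19 with isoproterenol, from 1 to 5 with isoproterenol in ctrlA cells, from 1 to 7 with LNA1, from 1 to 14 with LNA2 and from 1 to 6 between LNA2 and LNA1. DESeq2 gave 4, 5, 1, 1, 2 and 2 without the block, against 3.72, 7.12, 1.32, 1.26, 3.5 and 2.26% of all genes, and 21, 23, 8, 11, 17 and 8 with it, against 19.1, 25.6, 8.69, 8.65, 21 and 15.5%. With no filter on low counts and no block, isoproterenol moved 1 member and LNA2 0 (1.34% and 0.426% of all genes), and a fold limit of 0.5 on the log2 scale left 1 with isoproterenol (3.2%). Around the fit with the block, alternatives chosen after seeing the data gave, with no filter, 23 in the joint test, 15 with LNA1 and 10 between LNA2 and LNA1 (10.4%, 4.96% and 7.18% of all genes). The fold limit left 1 with isoproterenol, 1 in ctrlA cells, 1 with LNA1, 2 with LNA2 and 1 between the LNAs (7, 4.03, 2.43, 5.53 and 4.11% of all genes). With LNA1 and between the LNAs that member was Aldoc, tested through its LNA1 libraries. Without mitochondrial genes and CT010467.1 the block gave 3 higher and 5 lower members with LNA1 and 3 and 3 between the LNAs, in place of 4 and 3 and of 2 and 4, and the fit without a block 2 and 1 with isoproterenol in place of 1 and 1 (8.36%, 15.9% and 4.56% of all genes).

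Leaving out 1 library or 1 replicate number, the fit without a block gave 0 to 2 members in the joint test, 1 to 10 with isoproterenol (10 without replicate 2, against 10.9% of all genes), 0 to 1 in ctrlA cells, 0 to 1 with LNA1, 0 to 9 with LNA2 (9 without replicate 2, against 8.97%) and 0 to 2 between the LNAs. The same range with the block was 1 to 19, 12 to 23, 1 to 12, 1 to 18, 7 to 23 and 2 to 10, the highest counts coming without stimulated LNA2 replicate 3, except between the LNAs, where 10 came without stimulated LNA2 replicate 4. The shares of all genes at these highest counts stand with the results above, except for isoproterenol. There the share at 23 members is not given, so that count is not read as a result about the members. The members with an interaction stayed at 0 throughout. Over 1494 values of named members under an alternative, 0 changed direction and 217 no longer passed. The cause was not tested. Counts of 1 to 31 per library limit what can be read for Gm15551 and Aldoc.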

Other observations

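Of 16 hypoxia-responsive genes outside glycolysis, listed because many glycolytic genes also respond to low oxygen, all had enough counts to be tested. Their summed level was 4372 to 5764 CPM in the unstimulated and 3108 to 4874 CPM in the stimulated libraries. With isoproterenol 1 passed without the block, where 4.58% of all genes did: Ero1a, an oxidase of the endoplasmic reticulum, fell by 0.68 on the log2 scale (edgeR adjusted p = 0.00398), from 1511 ± 181 to 953 ± 222 CPM (SD, n = 9). With the block 8 passed, against 26.4% of all genes, with Ddit4, Hilpda and P4ha2 higher and Bnip3, Car9, Egln3, Ero1a and Fam162a lower. Ddit4, an inhibitor of mTOR signalling, differed by 0.30 (adjusted p = 0.00576 with the block and 0.439 without) and Bnip3, a mitophagy receptor, by -0.52 (0.000442 and 0.30). Genes of the list thus passed in both directions, as the glycolysis, transport and pentose phosphate members did. The median log2 difference with the block was -0.04 over the list and 0.09 over those members. Any part of low oxygen in either was not tested. With LNA1 2 of the 16 passed with the block, Egln3 and Fam162a, both lower, where 7.8% of all genes passed, and with LNA2 4, Ero1a, Fam162a, Kdm3a and P4ha1, all lower, where 20.6% did, while 0 passed without the block with either LNA (0.475 and 1.59% of all genes).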
